A study of Homo sapiens with 4 samples.

Results

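HOX genes encode homeodomain transcription factors, and the set described here is the 38 protein-coding genes of the HOXA, HOXB, HOXC and HOXD clusters that were listed by symbol for this work. All 38 symbols were matched to a row of the count tables, out of 58884 genes in each table, with 10 genes in HOXA, 10 in HOXB, 9 in HOXC and 9 in HOXD. GENCODE release 44 holds 39 protein-coding HOX genes in all, and the 1 that was not listed is not analysed here. RNA sequencing was done on HCT116, an established human colorectal carcinoma line, in 2 control libraries and 2 RALY knockdown libraries. The cell line entry is the same for all 4, but the source names read HCT-116 for replicate 1 and HCT-117 for replicate 2 of each group, a difference the labels do not explain. RALY, of the hnRNP family, binds RNA, and the labels describe 72 h with short hairpin lentivirus against it. The time given is 72 h for all 4 libraries, controls included. The control libraries are titled wild type and sourced as untreated, while the treatment text speaks of a nonsilencing hairpin, so whether the controls carried a hairpin is not settled by the labels. How many hairpins were used, and their sequences, is not stated in the labels or files used here.

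HOX genes lie in 4 clusters that arose by duplication, and genes at matching places in the clusters form paralog groups numbered from 1 to 13. In the embryo, the low-numbered genes at the 3′ end of a cluster are switched on early and toward the head, many of them by retinoic acid, and the high-numbered genes mark posterior structures such as the hindgut and limb ends. PBX, MEIS and PKNOX proteins bind DNA together with HOX proteins, polycomb complexes keep the clusters silent, and the MLL (KMT2A) family of histone methyltransferases keeps them active. Adult intestinal cells keep a pattern of HOX expression that differs along the gut. Groups 1 to 3 are called anterior below, groups 4 to 8 central and groups 9 to 13 posterior.

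RALY knockdown went with higher levels of HOXA2, HOXA3, HOXA4, HOXA9 and HOXB6 and lower levels of HOXA10, HOXB9, HOXB13 and HOXC13. The largest shift was in HOXA3, at 4.71 times its control level, with its neighbours HOXA2 and HOXA4 at 2.39 and 2.51 times theirs. In these bulk libraries, fewer cells expressing a gene and less RNA per cell cannot be told apart. Of the 9 listed HOXD genes 3 could be tested and none was called. A gene was called at a Benjamini-Hochberg adjusted p under 0.05 in edgeR's quasi-likelihood test over all 19686 genes with enough counts, of which 25.6% were called. Of the 38 listed genes 29 had enough counts to be tested, and 9 of these were called, or 31.0%. That share is near the background, so the number of calls says nothing particular about the family. By direction, 5 of 29 were higher (17.2%, against 12.5% of all genes tested) and 4 were lower (13.8%, against 13.1%). The median log2 fold change was 0.18 over the 29 genes and 0.01 over all genes tested. The family was chosen by name, with the log2 fold changes of the knockdown comparison known and no threshold applied, so each call below describes a gene and is no independent support for a change in the family. Without control replicate 1 or without control replicate 2, only HOXA3 and HOXA4 of the 9 kept their call, and the number of calls over all genes fell too, from 2470 higher and 2578 lower to 340 and 668 or to 476 and 508. Nothing in the labels ties the libraries of a group to different cultures, and p-values therefore reflect only how these libraries vary, which may be technical variation.

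RALY itself, the target of the knockdown, had 1903 and 2132 control counts against 634 and 522 after knockdown, so 27.9% of the control level remained (-1.84 in log2 units with an SE of 0.127, edgeR adjusted p = 6.59e-06). Totals ran from 13360007 to 16847520 counts, and 3 counts, the limit that a count of 0 allows, came to between 0.174 and 0.227 CPM (counts scaled to a common library total after TMM normalisation), a limit that covers counting error only. Of 9 colon epithelial markers, EPCAM, CDH1, KRT8, KRT18, KRT19 and CDX2 were at 25.9 to 207 CPM in all 4 libraries, and KRT20, VIL1 and LGALS4, which mark differentiated colon cells, were under 1 CPM in each. Of the 6 fibroblast markers, COL1A2, COL3A1, DCN and LUM were at 0 to 0.811 CPM. COL1A1 was at 111 and 131 CPM against 80.6 and 110 CPM and PDGFRB at 15.2 and 15.3 CPM against 21.3 and 20.4 CPM, without overlap in either and with no call. The 6 summed to 127 and 147 CPM against 103 and 132 CPM. Leukocyte markers summed to 2.96 and 4.17 CPM in control cells against 5.80 and 7.80 CPM after knockdown, and endothelial markers to 4.85 and 5.84 against 7.92 and 4.30 CPM. The 3 neurofilament genes were used as markers of HEK293T, a line for packaging lentivirus. They summed to 0.455 and 0.578 CPM in control cells against 2.93 and 3.70 CPM after knockdown. Most of this was NEFH, called higher with 6 and 9 control counts against 44 and 46 after knockdown. NEFL and NEFM had 8 counts or fewer in each library. The part of these markers in the HOX results was not tested.

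The sequences around start sites of HOXA2, HOXA3 and HOXA4 are shown here because these neighbours all rose, with an upstream start of HOXA10, which fell, beside them. They are RefSeq windows of 300 bases on GRCh38.p14, from 250 bases before a start to 50 after it, on the minus strand of chromosome 7, and 20 of the 38 genes are in that table with 27 windows. HOXA3 has 7 starts there, of which the innermost and the outermost, between HOXA6 and HOXA7, are shown. The counts are per gene and do not tell which start was used. Capitals mark matches on either strand to 5 motifs: AGGTCA and AGTTCA (core sites of retinoic acid receptors), TGATNNAT (HOX with PBX), TGACAG (MEIS) and TTTATG (CDX).
HOXA2, chr7:27102634-27102933: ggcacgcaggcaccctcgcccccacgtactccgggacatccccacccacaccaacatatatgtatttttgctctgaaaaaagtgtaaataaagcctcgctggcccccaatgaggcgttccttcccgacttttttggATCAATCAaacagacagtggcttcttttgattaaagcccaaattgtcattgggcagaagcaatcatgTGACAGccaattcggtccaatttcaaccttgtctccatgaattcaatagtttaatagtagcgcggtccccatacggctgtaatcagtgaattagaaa
HOXA3 outer start, chr7:27152534-27152833: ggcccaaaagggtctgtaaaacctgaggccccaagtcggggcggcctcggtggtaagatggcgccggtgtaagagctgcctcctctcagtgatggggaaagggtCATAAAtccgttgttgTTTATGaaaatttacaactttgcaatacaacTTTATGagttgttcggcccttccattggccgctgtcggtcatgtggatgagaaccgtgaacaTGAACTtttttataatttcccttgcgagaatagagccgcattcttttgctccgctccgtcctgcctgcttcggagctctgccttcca
HOXA3 inner start, chr7:27113793-27114092: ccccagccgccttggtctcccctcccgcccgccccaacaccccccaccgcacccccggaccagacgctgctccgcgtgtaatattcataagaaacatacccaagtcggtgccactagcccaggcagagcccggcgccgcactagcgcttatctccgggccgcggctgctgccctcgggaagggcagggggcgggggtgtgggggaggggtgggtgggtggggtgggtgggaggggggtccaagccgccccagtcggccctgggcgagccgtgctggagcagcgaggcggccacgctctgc
HOXA4, chr7:27130708-27131007: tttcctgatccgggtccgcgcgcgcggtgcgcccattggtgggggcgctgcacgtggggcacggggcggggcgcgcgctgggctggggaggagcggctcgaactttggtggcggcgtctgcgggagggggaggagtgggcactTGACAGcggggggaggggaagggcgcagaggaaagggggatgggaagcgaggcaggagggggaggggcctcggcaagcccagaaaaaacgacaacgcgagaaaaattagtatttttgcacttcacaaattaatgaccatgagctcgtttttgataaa
HOXA10, chr7:27179812-27180111: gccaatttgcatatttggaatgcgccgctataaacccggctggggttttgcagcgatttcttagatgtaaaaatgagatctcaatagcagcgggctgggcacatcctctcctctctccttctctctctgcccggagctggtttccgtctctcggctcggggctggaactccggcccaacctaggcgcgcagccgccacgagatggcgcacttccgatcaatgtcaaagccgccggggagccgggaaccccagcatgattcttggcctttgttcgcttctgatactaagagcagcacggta

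Across these windows, HOXA2 had 1 match to TGATNNAT and 1 to TGACAG, HOXA4 had 1 match to TGACAG, and the outer HOXA3 start had 3 matches to TTTATG and 1 to AGTTCA. The inner HOXA3 start and the HOXA10 start had none. Windows of genes that were not called or not tested held these motifs too. TGACAG was in HOXA13 and HOXD4, and TGATNNAT in HOXB1 and HOXD11. AGTTCA was in HOXC4, HOXC5, HOXD8 and HOXD13. TTTATG was in HOXD8 and in HOXA9, which was called higher. Whether matches go with a change was not tested. AGGTCA was in none of the 27 HOX windows and in 13.8% of the 35116 windows in the table. AGTTCA was in 22.2% of the HOX windows against 10.4% of all, TGATNNAT in 11.1% against 7.40%, TGACAG in 14.8% against 15.8% and TTTATG in 11.1% against 10.6%. Windows of the same gene can share a neighbourhood, and HOXC4 and HOXC5 share 1 window, so these shares are descriptions.

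HOXA2, the only paralog group 2 gene of the cluster (chromosome 7, positions 27100354 to 27102686, minus strand, GRCh38), had 28 and 26 control counts against 69 and 64 after knockdown. Both knockdown libraries, at 4.30 CPM each, lay above the controls at 2.12 and 1.5 CPM. HOXA2, which patterns the hindbrain and second pharyngeal arch in the embryo, rose by 1.26 in log2 units (SE 0.320, edgeR adjusted p = 0.0132). It lost its call without control replicate 1 (adjusted p = 0.0920), without control replicate 2 (adjusted p = 0.187) and in the Wald test of DESeq2 (adjusted p = 0.0609). None of its exon bases is shared with another gene of the table.

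HOXA3 (chromosome 7, positions 27106184 to 27152581, minus strand), which patterns the thymus and other neck organs, had 242 and 325 control counts against 1322 and 1378 after knockdown. Scaled to depth, it was at 18.3 and 18.8 CPM in control cells against 82.5 and 92.7 CPM after knockdown, so the groups were far apart against a small spread within each. HOXA3 rose by 2.24 in log2 units (SE 0.133, edgeR adjusted p = 2.85e-06), and it kept its call in all 11 other settings tried, at 2.14 to 2.33. Its share of all CPM in the 38 genes was 3.62% in the controls and 14.3% in the knockdown. Other genes share 17.9% of its exon bases, among them ENSG00000273433, which has no symbol, and the antisense HOXA-AS2.

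HOXA4 (chromosome 7, positions 27128507 to 27130799, minus strand) lies inside the long span of HOXA3, and had 138 and 193 control counts against 429 and 409 after knockdown. At 10.5 and 11.2 CPM against 26.8 and 27.5 CPM, the groups did not overlap and each pair was close. HOXA4 rose by 1.33 in log2 units (SE 0.181, edgeR adjusted p = 0.000401), and it kept its call in all 11 other settings, at 1.24 to 1.37. Other genes share 47.3% of its exon bases, so its counts are uncertain. One of them is ENSG00000273433 on the same strand, from position 27128969 to 27152561, which shares exon bases with HOXA3 too. It had 83 and 129 control counts against 278 and 245 after knockdown (log2 fold change 1.29, edgeR adjusted p = 0.00123). How reads on shared bases were assigned is not stated in the labels or files used here, and their part in the values of HOXA3 and HOXA4 was not tested.

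The next HOXA genes did not continue this pattern. HOXA5, a regulator of lung and gut development, had 13.3 and 18.1 CPM in control cells against 12.2 and 11.1 CPM after knockdown, so both knockdown libraries lay below the controls (-0.43 in log2 units with an SE of 0.216, edgeR adjusted p = 0.160). HOXA6 was at 6.06 and 7.35 CPM against 6.49 and 3.56 CPM, with overlapping groups and knockdown replicate 2 lowest (-0.42 in log2 units with an SE of 0.304, edgeR adjusted p = 0.347). Without knockdown replicate 1 its value was -0.94 and it was called (edgeR adjusted p = 0.0181). HOXA7 had 32.9 and 31.4 CPM in control cells against 39.2 and 40.7 CPM after knockdown (0.31 in log2 units with an SE of 0.137, edgeR adjusted p = 0.112), and 62.5% of its exon bases are shared with the antisense HOXA-AS3. HOXA genes of groups 2 to 4 were thus all called higher, and those of groups 5 to 7 had values from -0.43 to 0.31 and no call.

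**Figure D1:**
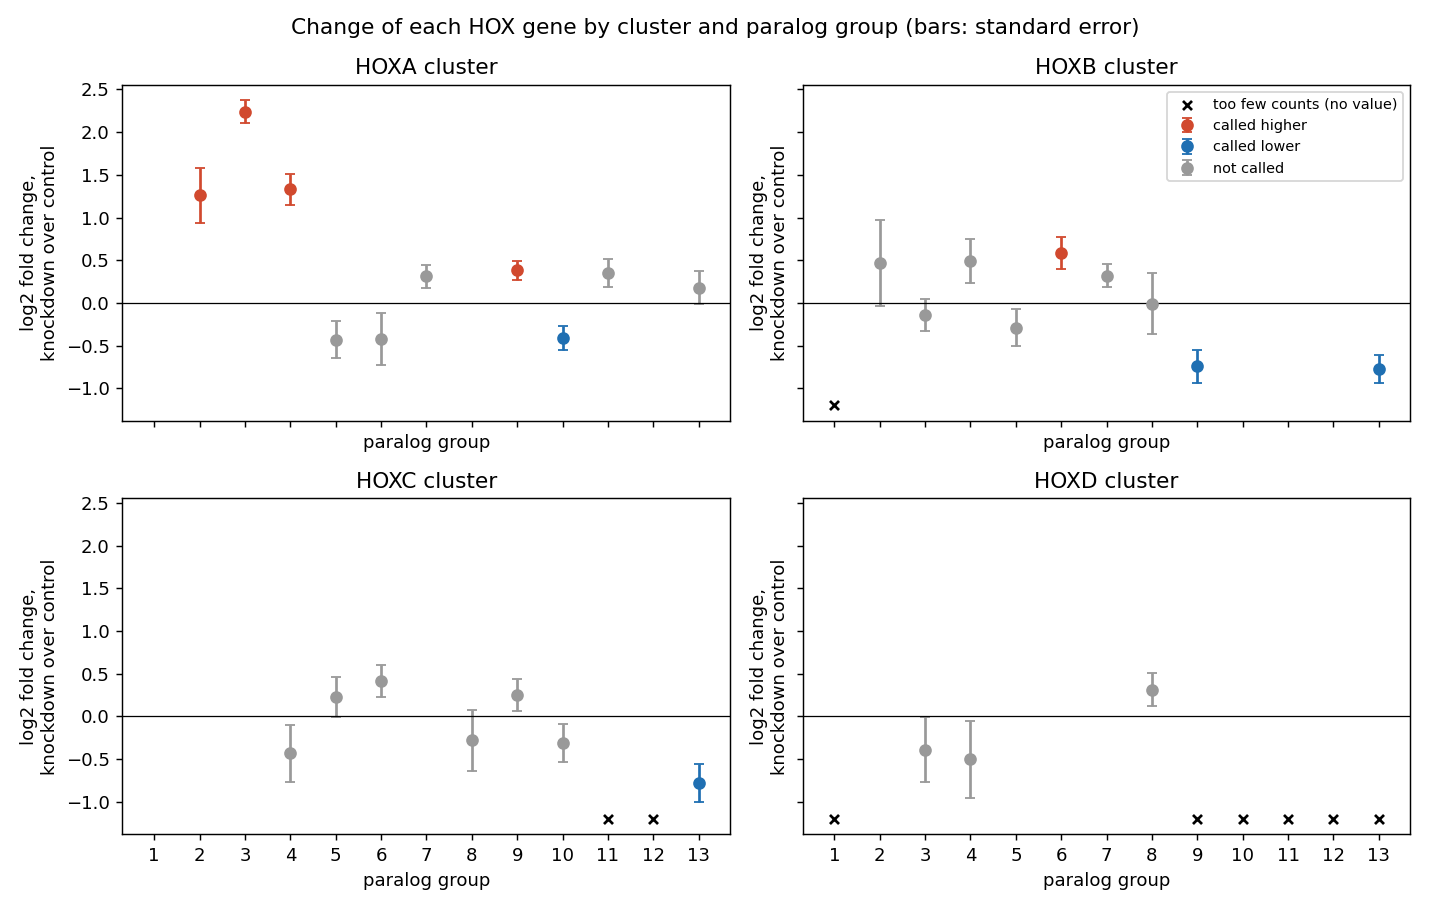
Log2 fold change of knockdown over control with its standard error (vertical axis) against paralog group (horizontal axis) in each of the 4 clusters, coloured by the call across all genes tested; crosses mark the 9 genes with too few counts for a value. HOXA3 stands at 2.24 with HOXA4 at 1.33 and HOXA2 at 1.26, while called genes elsewhere lie between -0.78 and 0.58.

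HOXA9 and HOXA10 lie side by side in the posterior part of HOXA and differed in sign. HOXA9 (chromosome 7, positions 27162438 to 27175180), a regulator of limb and blood cell development, had 1100 and 1269 control counts against 1604 and 1543 after knockdown. At 83.4 and 73.4 CPM against 100 and 104 CPM the knockdown libraries were the higher pair, and HOXA9 rose by 0.38 in log2 units (SE 0.114, edgeR adjusted p = 0.0282). HOXA10 (positions 27170592 to 27180261), known for its role in the uterus, had 607 and 759 control counts against 515 and 528 after knockdown. At 46.0 and 43.9 CPM against 32.1 and 35.5 CPM the knockdown libraries were the lower pair, and HOXA10 fell by 0.41 in log2 units (SE 0.135, edgeR adjusted p = 0.0419). The difference between these genes was not tested. Other genes take in 27.0% of the exon bases of HOXA9 and 26.2% of those of HOXA10, including ENSG00000257184, which spans both and had 383 and 471 control counts against 560 and 530 after knockdown (log2 fold change 0.33, edgeR adjusted p = 0.114).

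Both calls were lost without control replicate 1 (edgeR adjusted p = 0.114 for HOXA9 and 0.233 for HOXA10) and without control replicate 2 (0.258 and 0.182). HOXA10 was also not called without knockdown replicate 1 (edgeR adjusted p = 0.0799) or in DESeq2 (adjusted p = 0.0606). HOXA11, a limb and uterus regulator, had 19.1 and 19.8 CPM in control cells against 26.2 and 23.3 CPM after knockdown, without overlap (0.35 in log2 units with an SE of 0.169, edgeR adjusted p = 0.151). HOXA13, which acts in the hindgut and the limb ends, had 17.5 and 22.0 CPM against 20.3 and 24.5 CPM, with overlapping groups (0.18 in log2 units with an SE of 0.189, edgeR adjusted p = 0.534).

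In HOXB the called genes were HOXB6, which was higher, and the posterior genes HOXB9 and HOXB13, which were lower. HOXB6 (chromosome 17, positions 48595751 to 48604992, minus strand) had 205 and 371 control counts against 453 and 405 after knockdown. Control replicate 1 was lowest at 15.5 CPM, control replicate 2 was at 21.5 CPM, and the knockdown libraries were at 28.3 and 27.2 CPM. HOXB6 rose by 0.58 in log2 units (SE 0.187, edgeR adjusted p = 0.0389), a call that was lost without control replicate 1 (0.33, adjusted p = 0.413), without control replicate 2 (adjusted p = 0.0899) and with plain library totals (adjusted p = 0.0733). Other genes share 32.9% of its exon bases, among them HOXB3 and the antisense HOXB-AS3.

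HOXB9 (chromosome 17, positions 48621156 to 48626358, minus strand) had 352 and 622 control counts against 265 and 314 after knockdown. Its CPM were 26.7 and 36.0 against 16.5 and 21.1, so every control lay above every knockdown library, and it fell by 0.74 in log2 units (SE 0.194, edgeR adjusted p = 0.0152). HOXB13 (positions 48724763 to 48729178), a marker of prostate and distal colon, had 485 and 672 control counts against 315 and 367 after knockdown. It stood at 36.8 and 38.9 CPM against 19.7 and 24.7 CPM and fell by 0.77 in log2 units (SE 0.161, edgeR adjusted p = 0.00460). No exon base of HOXB9 or HOXB13 is shared with another gene. Their calls were lost without control replicate 1 (edgeR adjusted p = 0.0590 and 0.0725) and without control replicate 2 (0.257 and 0.109).

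The other HOXB genes were not called. HOXB7, with the second highest level per length of the family, had 33.5 and 33.1 CPM in control cells against 40.4 and 43.0 CPM after knockdown (0.32 in log2 units with an SE of 0.135, edgeR adjusted p = 0.0989). HOXB4, a gene of blood stem cell biology, was at 5.91 and 6.19 CPM against 7.17 and 9.88 CPM (0.49 in log2 units with an SE of 0.253, edgeR adjusted p = 0.175). Without knockdown replicate 1, HOXB4 was at 0.69 and called (edgeR adjusted p = 0.0471). HOXB3, a hindbrain patterning gene, was at 16.4 and 17.8 CPM against 14.9 and 16 CPM, where the groups did not overlap (-0.14 in log2 units with an SE of 0.187, edgeR adjusted p = 0.619). HOXB5, a regulator of enteric nerve and lung development, stood at 11.6 and 14.9 CPM against 10.5 and 11.2 CPM, where the groups did not overlap (-0.29 in log2 units with an SE of 0.216, edgeR adjusted p = 0.35). In both genes the 2 knockdown libraries were the lower pair. HOXB8, known in blood and sensory development, measured 2.2 and 3.01 CPM against 1.93 and 3.29 CPM, where the groups overlapped (-0.01 in log2 units with an SE of 0.357, edgeR adjusted p = 0.988). HOXB2, a hindbrain gene, was at 0.531 and 1.16 CPM against 0.811 and 1.61 CPM, where the groups overlapped (0.47 in log2 units with an SE of 0.504, edgeR adjusted p = 0.542). HOXB2 rests on 7 to 24 counts per library. HOXB1, the hindbrain gene at the 3′ end, had no count in any library.

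**Figure D2:**
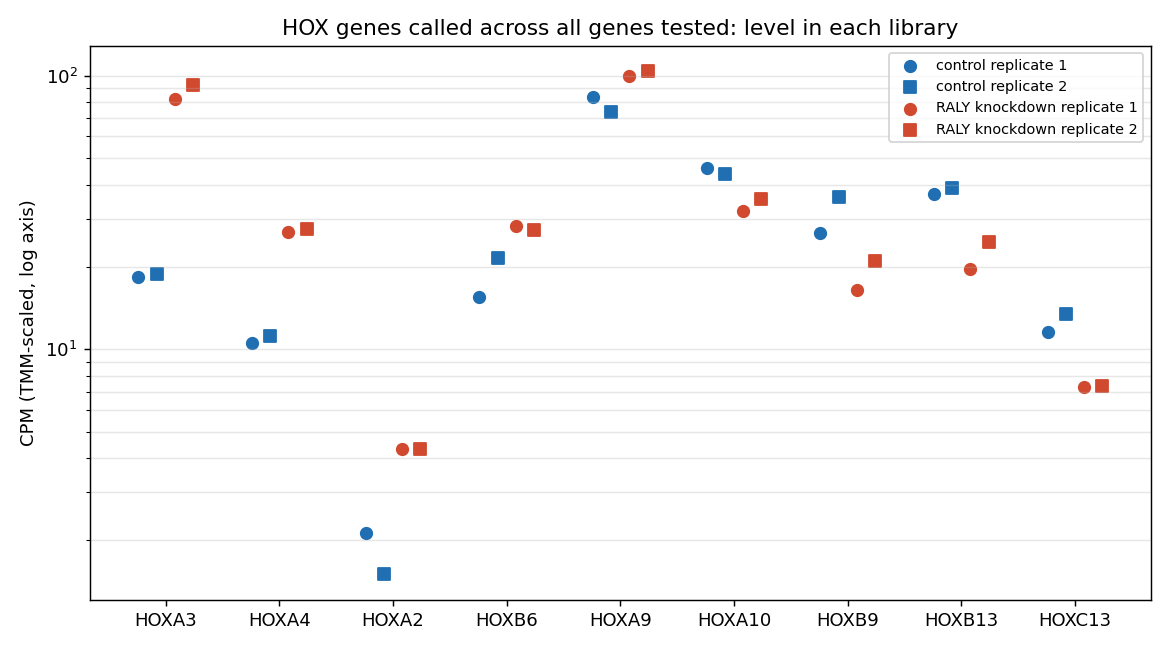
CPM on a log axis for the 9 called HOX genes in each library, ordered from the largest rise to the largest fall; blue marks controls, red marks knockdown, circles replicate 1 and squares replicate 2. In each gene the red and blue points do not overlap, with HOXA3 going from 18.3 and 18.8 CPM to 82.5 and 92.7 CPM.

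HOXC held 1 called gene, its most posterior member. HOXC13 (chromosome 12, positions 53938831 to 53946544, plus strand), a regulator of hair and nail keratins, had 153 and 233 control counts against 117 and 109 after knockdown. At 11.6 and 13.5 CPM against 7.30 and 7.33 CPM the knockdown libraries were the lower pair, and HOXC13 fell by 0.78 in log2 units (SE 0.219, edgeR adjusted p = 0.0212). The call was lost without control replicate 1 (edgeR adjusted p = 0.114) and without control replicate 2 (0.212). HOXC6 was at 14.9 and 17.8 CPM in control cells against 23.3 and 20.4 CPM after knockdown (0.42 in log2 units with an SE of 0.187, edgeR adjusted p = 0.122). The other tested HOXC genes were not called. HOXC4 was at 6.37 and 4.05 CPM against 4.8 and 2.82 CPM, where the groups overlapped (-0.43 in log2 units with an SE of 0.334, edgeR adjusted p = 0.374). HOXC8, a trunk patterning gene, stood at 3.11 and 4.34 CPM against 4.06 and 2.08 CPM, where the groups overlapped (-0.28 in log2 units with an SE of 0.355, edgeR adjusted p = 0.609). HOXC10, a lumbar patterning gene, measured 14.3 and 22.2 CPM against 14.6 and 14.9 CPM, where the groups overlapped (-0.31 in log2 units with an SE of 0.223, edgeR adjusted p = 0.332). In these the values lay on the lower side in the knockdown, within the spread of the libraries. HOXC5 was at 6.9 and 8.04 CPM against 8.23 and 9.35 CPM, where the groups did not overlap (0.23 in log2 units with an SE of 0.233, edgeR adjusted p = 0.51). HOXC9, a thoracic patterning gene, stood at 15.8 and 18.2 CPM against 18.7 and 22 CPM, where the groups did not overlap (0.25 in log2 units with an SE of 0.187, edgeR adjusted p = 0.349). HOXC5 shares 59.9% of its exon bases with other genes. HOXC4 stood at -0.88 without knockdown replicate 1, where it was called (edgeR adjusted p = 0.0437). HOXC11 had no count in any library and HOXC12 had 1 count in 1 knockdown library.

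HOXD was nearly silent apart from HOXD8. HOXD8 had 220 and 352 control counts against 323 and 383 after knockdown, or 16.7 and 20.4 CPM against 20.2 and 25.8 CPM with overlapping groups (0.31 in log2 units with an SE of 0.193, edgeR adjusted p = 0.272). HOXD3 was at 1.52 and 2.66 CPM against 1.62 and 1.61 CPM, where the groups overlapped (-0.39 in log2 units with an SE of 0.381, edgeR adjusted p = 0.496). HOXD4 stood at 0.91 and 1.97 CPM against 0.936 and 1.14 CPM, where the groups overlapped (-0.50 in log2 units with an SE of 0.451, edgeR adjusted p = 0.452). Both rest on 12 to 46 counts per library, and other genes share 74.1% and 74.8% of their exon bases. HOXD1, HOXD9, HOXD10, HOXD11, HOXD12 and HOXD13 had too few counts to be tested, with 10 counts at most in any library. HOXD13, the hindgut and digit gene, had 7 and 10 control counts against 3 and 5 after knockdown.

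Levels of different genes were compared as CPM per kilobase of the deposited gene length. In the controls HOXA9 was highest at 25.8 CPM per kilobase, followed by HOXB7 at 21.8, HOXA7 at 13.3, HOXA10 at 12.1, HOXB9 at 12.1, HOXB13 at 10.9 and HOXC9 at 10.2. The 2 controls of HOXB9, at 10.3 and 13.9, overlapped those of HOXA7 (13.6 and 13), HOXA10 (12.4 and 11.8), HOXB13 (10.6 and 11.2) and HOXC9 (9.51 and 10.9), and HOXC9 overlapped HOXB13, so the order below HOXB7 is not settled. In the knockdown HOXA9 at 33.6 and HOXB7 at 27.3 were still the leading genes, and HOXA3 at 20.3 took rank 3 of the 38 genes, against rank 18 in the controls at 4.31. Per length, HOXA2 was the lowest of the 10 HOXA genes in both groups, at 0.777 in the controls and 1.84 in the knockdown. In HOXC the order of control levels did not follow position. HOXC9 at 10.2 and HOXC13 at 5.32 were both expressed in controls while HOXC11 and HOXC12 between them were at 0.

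**Figure D3:**
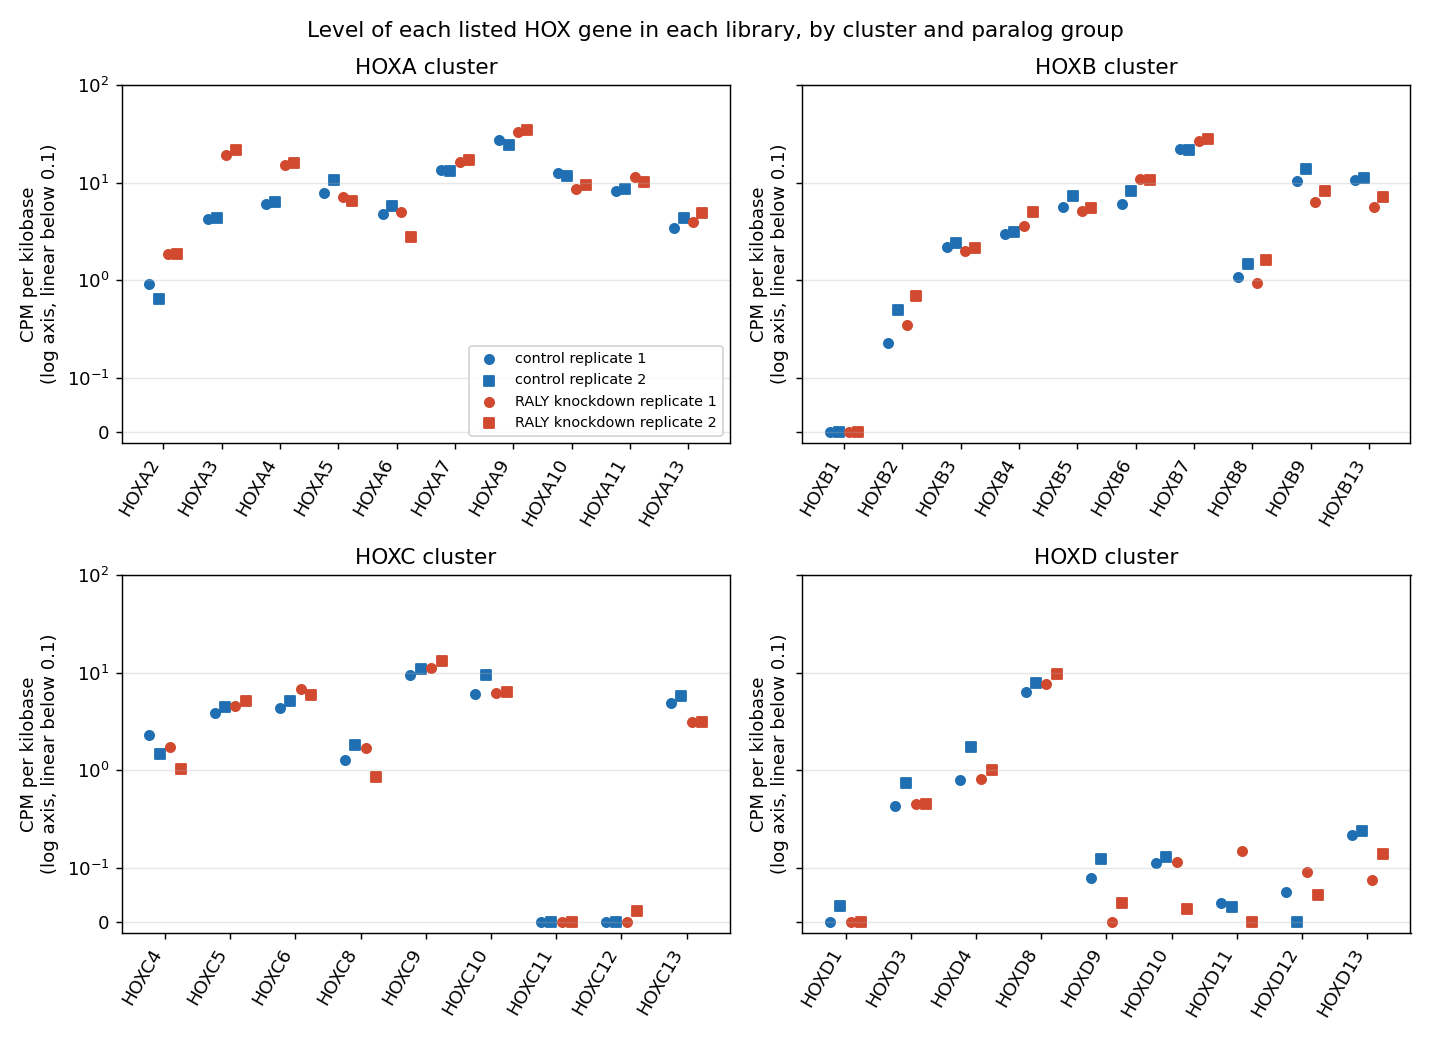
CPM per kilobase (log axis, linear below 0.1) of each listed HOX gene in the 4 libraries, with 1 panel per cluster and genes in the order of their paralog group. HOXA3 climbs from 4.26 and 4.37 to 19.2 and 21.5, and in HOXD the highest gene is HOXD8 at 6.34 to 9.80 while the posterior genes lie at 0.239 or less.

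By cluster, the summed CPM of HOXA went from 249 and 247 in the controls to 350 and 367 in the knockdown. HOXB was at 149 and 173 against 140 and 158 CPM, HOXC at 73.0 and 88.2 against 81.0 and 78.9 CPM, and HOXD at 20.2 and 26.3 against 23.6 and 29.0 CPM, each with overlapping groups. By position, anterior genes summed to 38.9 and 41.9 CPM in control cells against 104 and 116 CPM after knockdown, with HOXA3 the main part. Central genes were at 180 and 203 against 234 and 239 CPM, and posterior genes at 272 and 289 against 256 and 278 CPM. Of the tested genes, 2 of 5 anterior, 2 of 15 central and 1 of 9 posterior genes were called higher, and 0, 0 and 4 were called lower. The shares called higher were 40%, 13.3% and 11.1%, against 12.5% of all genes tested, and 44.4% of the posterior genes were called lower, against 13.1%. These numbers are small, members of a cluster are not replicates, and no test of position was made. In all, 19 of the 29 tested genes had groups that did not overlap, beside 63.6% of all genes tested.

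The estimates for members of 1 paralog group often differed in sign, but group 9 alone held called genes of opposite sign. In groups 2, 7 and 10 the tested genes had the same sign. In group 3, HOXA3 rose by 2.24 on the log2 scale while HOXB3 was at -0.14 and HOXD3 at -0.39. In group 4, HOXA4 rose by 1.33 while HOXB4, HOXC4 and HOXD4 were at 0.49, -0.43 and -0.50. In group 9, HOXA9 rose by 0.38 and HOXB9 fell by 0.74, with HOXC9 at 0.25. In group 13, HOXB13 and HOXC13 fell by 0.77 and 0.78 and HOXA13 was at 0.18. Of these genes HOXB3, HOXD3, HOXB4, HOXC4, HOXD4, HOXC9 and HOXA13 were not called. HOXD3, HOXD4 and HOXA13 changed sign when 1 control was left out. Differences between paralogs were not tested.

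Of 18 listed noncoding genes of the clusters, 10 were tested, and 2 were higher and 1 lower (20% and 10%, against 12.5% and 13.1% of all genes tested). HOXA-AS2, antisense to HOXA3 and HOXA4, had 94 and 77 control counts against 213 and 245 after knockdown and rose by 1.37 in log2 units (SE 0.262, edgeR adjusted p = 0.00288). HOXA10-AS, antisense to the HOXA9 and HOXA10 region, had 200 and 252 counts against 441 and 300 and rose by 0.68 (SE 0.198, edgeR adjusted p = 0.0244). HOXB-AS1, antisense to parts of HOXB2 and HOXB3, had 22 and 43 counts against 13 and 5 and fell by 1.84 (SE 0.474, edgeR adjusted p = 0.0139), while neither HOXB2 nor HOXB3 was called. HOXA-AS2 lost its call without control replicate 2 (edgeR adjusted p = 0.101), HOXA10-AS without control replicate 1, control replicate 2 or knockdown replicate 1 (0.204, 0.223 and 0.126), and HOXB-AS1 without control replicate 1 or 2 (0.0874 and 0.238) and in DESeq2 (0.0810). Without knockdown replicate 1, HOXA10-AS was at 0.42 and HOXB-AS1 at -2.64 in log2 units. Genes on the opposite strand share 62.3% of the exon bases of HOXA10-AS, 29.6% of those of HOXB-AS1 and 11.9% of those of HOXA-AS2. Whether strand was used in counting is not stated in the labels or files used here, so reads from a gene and its antisense partner may be mixed. HOTAIR had 1 count in 1 library, and HAGLR and HAGLROS had none. The 6 microRNA genes of the clusters, MIR10A, MIR10B, MIR196A1, MIR196A2, MIR196B and MIR615, had 0 to 3 counts in each library and were not tested.

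Genes that flank the clusters gave 1 higher and 2 lower of 14 tested (7.14% and 14.3%, against 12.5% and 13.1% of all genes tested). SKAP2, beyond the 3′ end of HOXA, had 827 and 1139 control counts against 1371 and 1370 after knockdown and rose by 0.47 in log2 units (edgeR adjusted p = 0.0104). HIBADH, beyond the 5′ end of HOXA, fell by 0.73 (edgeR adjusted p = 0.00234). LNPK, beyond the 5′ end of HOXD, fell by 0.55 in log2 units (edgeR adjusted p = 0.00432). SKAP2 and HIBADH were not called without control replicate 1 or 2, and LNPK was not called without control replicate 2.

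Among the TALE cofactors of HOX proteins, 1 of 8 tested was called (12.5%, against 25.6% of all genes tested). PBX3 had 422 and 574 control counts against 860 and 1022 after knockdown and rose by 0.91 in log2 units (SE 0.146, edgeR adjusted p = 0.00106). It was not called without control replicate 1 (adjusted p = 0.0599) or control replicate 2 (adjusted p = 0.0556). PBX2, PBX4, MEIS2, MEIS3 and PKNOX1 had log2 fold changes between 0.02 and 0.32 and PKNOX2 was at 1.12 on 6 to 34 counts, none of them called, and MEIS1 had no count. CDX2, the caudal factor of intestinal identity that acts upstream of HOX genes, had 37.7 and 35.6 CPM in control cells against 27.1 and 25.9 CPM after knockdown. It fell by 0.47 in log2 units (edgeR adjusted p = 0.0311), and was the 1 gene tested of 6 caudal and ParaHox genes. It was not called without control replicate 1 or 2 (adjusted p = 0.214 and 0.160).

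Of the 17 retinoic acid pathway genes listed, 12 were tested, and 5 were higher and 1 lower (41.7% and 8.33%, against 12.5% and 13.1% of all genes tested). This list was chosen with earlier results of these data known and its numbers are small, so the shares are descriptions. STRA6, the membrane receptor for retinol uptake, had 315 and 662 control counts against 1254 and 1461 after knockdown and rose by 1.5 in log2 units (SE 0.191, edgeR adjusted p = 0.000278). ALDH1A2, which makes retinoic acid from retinal, had 2 and 5 control counts against 39 and 61 after knockdown and was called higher (edgeR adjusted p = 0.000391). DHRS3, a retinal reductase, rose by 0.73 in log2 units (edgeR adjusted p = 0.00377). CYP26B1 and ALDH1A3 are named after their values were seen. The retinoic acid hydroxylase gene CYP26B1 rose by 0.55 in log2 units, and ALDH1A3, an abundant retinal dehydrogenase at 203 ± 45.0 CPM without and 141 ± 34.0 CPM with knockdown (SD, n = 2), fell by 0.53, with 30.9% of its exon bases shared. The receptor genes RARA, RARG, RXRA and RXRB had log2 fold changes between -0.32 and 0.01 and were not called. DHRS3 lost its call when either control was left out (edgeR adjusted p = 0.114 and 0.0643).

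Of 14 MLL and trithorax regulators, all tested, 5 were higher and none lower (35.7% and 0%, against 12.5% and 13.1% of all genes tested). This list too was chosen with earlier results known, so its shares are descriptions. KMT2C rose by 0.88, KMT2A, which encodes MLL itself, by 0.68, and the H3K27 demethylase gene KDM6A by 0.47, all in log2 units (edgeR adjusted p = 0.000953, 0.00477 and 0.0176), and the other called genes, named after their values were seen, were KMT2D and RBBP5. Of 18 polycomb genes, all tested, 1 was higher and 2 lower (5.56% and 11.1%, against 12.5% and 13.1% of all genes tested). EZH1, a catalytic subunit of the complex that methylates H3K27, had 838 and 1174 control counts against 393 and 328 after knockdown and fell by 1.5 in log2 units (SE 0.135, edgeR adjusted p = 3.46e-05). EZH2, EED and SUZ12, named after their values were seen, were at 0.28, 0.25 and 0.28 and not called. RBBP4 and JARID2, also not called, were at -0.07 and -0.12. In the controls EZH2 had a mean of 148 CPM, against 65.7 CPM for EZH1. CBX7, a reader subunit, fell by 0.83 (edgeR adjusted p = 0.000606) and BMI1 rose by 0.34 (edgeR adjusted p = 0.0370). KMT2A and KMT2C were not called without control replicate 1, KDM6A was not called without control replicate 1 or 2, and BMI1 was not called when any 1 of the 4 libraries was left out or with no filter on low counts (edgeR adjusted p = 0.0624). KDM6A was at 0.29 in log2 units without control replicate 1. Other genes share 21.6% of the exon bases of CBX7 and 22.8% of those of BMI1, so their counts are uncertain.

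**Figure D4:**
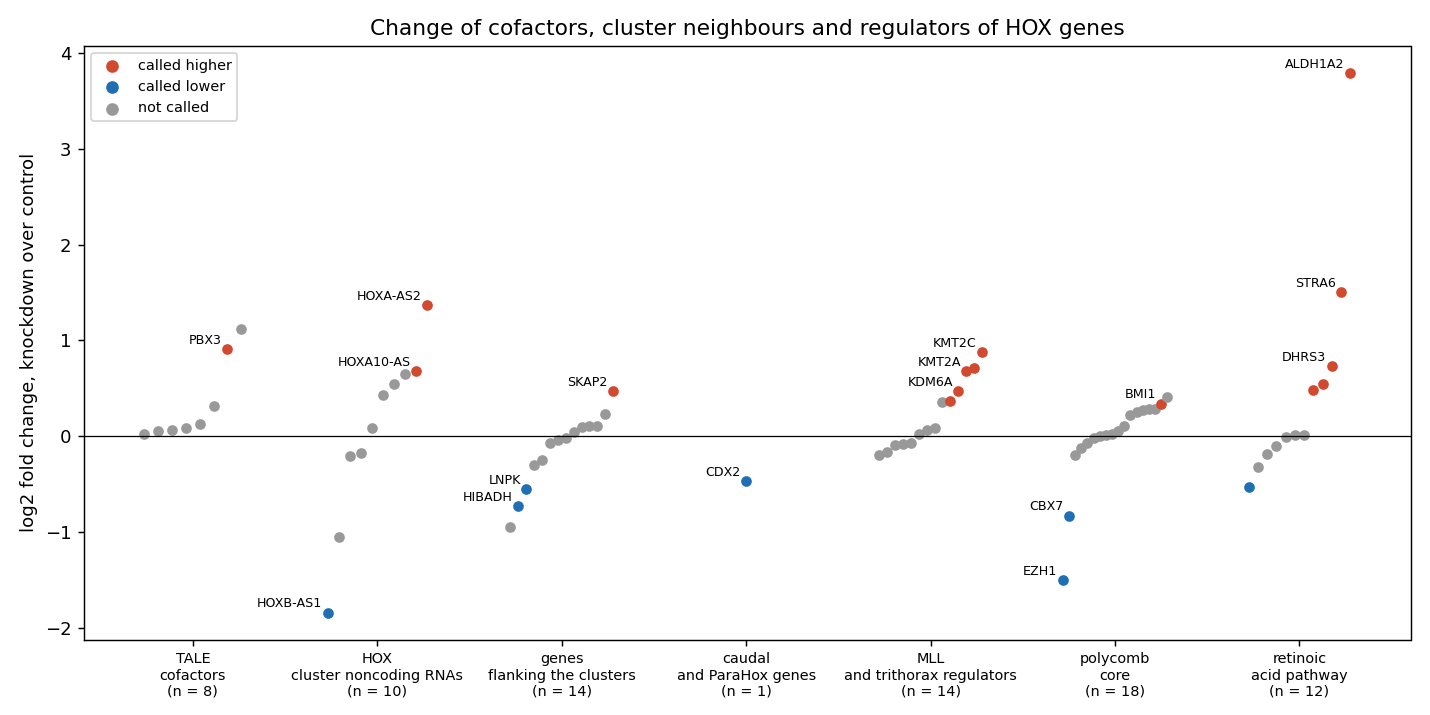
Log2 fold change of knockdown over control (vertical axis) for each tested gene of 7 lists related to HOX genes, sorted within each list and coloured by the call across all genes tested. The highest point is ALDH1A2, on 2 and 5 control counts, and the lowest is HOXB-AS1 at -1.84. Most polycomb genes lie near 0, with EZH1 at -1.5, and 5 of 14 MLL and trithorax genes are called higher, up to KMT2C at 0.88.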

How the data were processed

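RNA of 2 control and 2 RALY knockdown libraries was sequenced, and the authors deposited 1 table per library of raw read counts per gene with gene lengths, in Ensembl identifiers. The submitters' processing notes name HISAT2 2.0.4, SAMtools, Subread and featureCounts and the build GRCh38, with no settings. Symbols came from GENCODE release 44, and 58472 of 58884 genes received a symbol. Exon overlaps were taken from the exon positions given with the deposited counts.

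Counts were tested with edgeR 4.0.16 in R 4.3.3 (TMM scaling, filterByExpr, robust quasi-likelihood fit, group as the only term), with Benjamini-Hochberg adjustment over 19686 genes. The standard error is the size of the log2 fold change divided by the square root of F. CPM used TMM-scaled totals. Overlapping exons could move reads between genes, and 13 of the 38 HOX genes share over 20% of their exon bases. The test was checked on simulated data. The replicate numbers in the titles are not said to pair libraries, and with 2 pairs they were treated as names.

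The members and the context lists were chosen with earlier results of these data known. All listed HOX genes are accounted for, with full values for those at a mean of 1 CPM or more or called. Of each context list, up to 3 called genes with the smallest p are named, and some genes of these lists are not reported here. Alternatives covered scaling, filtering, DESeq2 1.42.0, a replicate block, each library left out and, chosen after seeing the data, a correction for counts that level off. In genes of 500 bases or more, mean counts per base were 2.03 at most. If counts level off near this value, high levels are understated more than low ones, and CPM per kilobase was not corrected for it. With the correction 5 HOX genes were called higher and 4 lower.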

Additional observations from a re-analysis of the deposited data

How the results depend on the processing

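No called HOX gene changed direction in any of the 11 alternatives, and HOXA3 and HOXA4 kept their calls in each. When 1 library was left out, the HOX genes called higher numbered 2 to 6 and those called lower 0 to 5, and over all genes 340 to 2908 were higher and 508 to 3351 lower. Both low ends came from leaving out a control. With the other settings, plain library totals gave 4 HOX genes higher and the DESeq2 Wald test 4 higher and 3 lower. Uncalled genes that changed sign when 1 library was left out ranged from -0.01 to 0.34 (HOXA13), -0.11 to 1.16 (HOXB2), -0.45 to 0.30 (HOXB8, also 0.23), -0.87 to 0.10 (HOXC8), -0.63 to 0.03 (HOXC10), -0.75 to 0.08 (HOXD3) and -0.95 to 0.17 (HOXD4); the cause was not tested. The replicate numbers give no stated pairing, and deviations of same-numbered libraries correlated at 0.213; with the replicate block 6 HOX genes were higher, HOXC6 added, 4 were lower, and 3518 and 3536 of all genes were higher and lower. At these depths 9 HOX genes could not be tested.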
